A study of Drosophila melanogaster with 2 samples.

Results

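The 4 genes described here are cbt, Lk6, tara and larp of Drosophila melanogaster, and they were chosen by name with the strength of their peaks in these lists known. They are 4 of 13968 protein-coding genes on the chromosome arms. A peak was counted at a gene when its summit, the position of highest enrichment, lay in the gene body or within 5 kb of it. By this rule 107 of the 60624 peaks of the pooled ranked list belonged to the 4 genes, 16 at cbt, 17 at Lk6, 48 at tara and 26 at larp. Because the members were chosen on these signals, the signals are given as a description and no test is attached to them.

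The data were chromatin immunoprecipitation with sequencing (ChIP-seq) of whole embryos aged 0 to 24 h from a Taf1-GFP strain, in which flies carry a Taf1-eGFP fusion as a transgene, and chromatin was pulled down through GFP. There was 1 group of 2 biological replicates and no untreated or treated arm, so the comparisons were between replicates, between peak lists and between these loci and the rest of the genome. Whole embryos mix all cell types and stages of the collection, so a peak cannot be assigned to a cell type. Read numbers were not among the values used, so the depth is unknown, and no expression markers could be checked.

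Taf1 is the large scaffold protein of TFIID, a general factor that recognises core promoters and helps RNA polymerase II to start. Genes with several start sites can be transcribed from alternative promoters, each of which may assemble its own TFIID. The 4 genes have different products. cbt (cabut) encodes a zinc finger transcription factor of the Sp and KLF family with roles in dorsal closure, sugar response and the circadian clock. Lk6 encodes a protein kinase related to the mammalian Mnk kinases, which phosphorylate the cap-binding translation factor eIF4E. tara (taranis) encodes a nuclear co-regulator of the SERTAD family that interacts genetically with trithorax group genes and promotes sleep in adults. larp encodes La-related protein 1, an RNA-binding protein that associates with poly(A)-binding protein and acts in mRNA translation and stability.

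The 201 bases centred on the summit of the strongest peak of each gene are shown, since the account of each locus starts from that peak. They are given 5′ to 3′ on the plus strand of the release 6 genome (dm6 coordinates, sequence from RefSeq), in lower case with the 21 bases at the summit in capitals.
cbt, 2L:480993-481193: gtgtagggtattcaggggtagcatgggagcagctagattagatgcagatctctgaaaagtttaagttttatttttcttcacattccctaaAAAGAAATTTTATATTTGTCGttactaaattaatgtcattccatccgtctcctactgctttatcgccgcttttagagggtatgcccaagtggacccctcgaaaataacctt
Lk6, 3R:11760945-11761145: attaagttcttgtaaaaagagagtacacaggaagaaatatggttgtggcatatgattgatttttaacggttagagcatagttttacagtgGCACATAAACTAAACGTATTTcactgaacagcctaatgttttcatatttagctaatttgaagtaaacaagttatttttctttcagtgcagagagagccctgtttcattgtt
tara, 3R:16222371-16222571: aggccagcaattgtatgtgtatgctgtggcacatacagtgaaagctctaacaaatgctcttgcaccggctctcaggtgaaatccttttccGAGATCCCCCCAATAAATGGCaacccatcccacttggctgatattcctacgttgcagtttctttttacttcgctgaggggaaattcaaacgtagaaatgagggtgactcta
larp, 3R:28326495-28326695: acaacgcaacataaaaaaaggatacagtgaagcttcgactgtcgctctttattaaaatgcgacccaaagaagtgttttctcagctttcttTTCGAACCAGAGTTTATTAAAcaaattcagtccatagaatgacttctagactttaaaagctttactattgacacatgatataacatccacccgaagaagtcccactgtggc

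A peak was called when its global irreproducible discovery rate (IDR), the authors' estimate of the share of irreproducible peaks at that rank, was 0.01 or less in the pooled ranked list. By this rule 26 of the 107 peaks were called, 7 at cbt, 2 at Lk6, 12 at tara and 5 at larp. As background, 36.1% of protein-coding genes had at least 1 called peak in the same window. At least 2 called peaks were found at 12.4% of genes, at least 5 at 0.444%, at least 7 at 0.129% and at least 12 at 0.0143%. Long genes offer more room. The body of tara is 34679 bp, that of larp 18279 bp, that of Lk6 13527 bp and that of cbt 3243 bp, and 3.99%, 8.08%, 10.8% and 36.0% of protein-coding genes are at least as long. Per 10 kb of window there were 5.29 called peaks at cbt, 2.69 at tara, 1.77 at larp and 0.85 at Lk6, against 0.2 over the arms as a whole. On the threshold itself, the weakest call was a tara peak with a −log10 global IDR of 2.13, and the nearest miss was a larp peak at 1.96. A call in the pooled list is not read here as agreement between the 2 replicates, which is described separately below. The tara peak at 2.13, with a pooled signal of 67.4, had no overlapping peak in replicate 1.

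The product of cbt is a DNA-binding regulator, and its locus held the second strongest of all 60624 pooled peaks. cbt (FBgn0043364, 2L:476446-479688, minus strand) lies inside the larger gene ush, which encodes a zinc finger cofactor of GATA factors and runs on the plus strand. All 3 annotated cbt transcripts share 1 start site, at 2L:479688. The strongest peak spanned 2L:480944-481236, with its summit 1405 bp upstream of that start site and in an intron of ush. Peak signals are the authors' own, as their caller wrote them, and their scale is not named in the files. Here the signal was 1486.8 in the pooled list, 677.3 in replicate 1 and 860.7 in replicate 2 (mean 769.0 ± 129.7, SD, n = 2). It was the strongest peak of the replicate 1 list and the second strongest of the replicate 2 list, and the summits of the replicates lay 13 bp apart.

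A row of 3 further called peaks stood upstream of the cbt start site, each in the same host gene. The summit nearest to the start site, 404 bp upstream, had a pooled signal of 245.2, with 104.2 in replicate 1 and 141.3 in replicate 2. The one 950 bp upstream had a pooled signal of 56.0 and differed most between the replicates, with 27.3 in replicate 1 and 107.5 in replicate 2. The farthest, 2294 bp upstream, had a pooled signal of 220.6, with 115.4 and 105.5. Thus 1 of the 4 upstream peaks lay within 500 bp of the cbt start, and it was not the strongest of them.

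Inside the cbt gene, called peaks lay 732 and 531 bp downstream of the start site, each in the 5′ UTR of at least 1 transcript. The first summit is intronic in both other transcripts, and the second in 1 of them. The pooled signals of these peaks were 58.9 and 10.3, and their intervals overlap. The peak of 10.3 had a −log10 global IDR of 2.58 here and 0.10 in the other of the 2 pooled ranked lists, where it was not called. The strongest replicate peaks overlapping either of these 5′ UTR peaks were the same, at 36.7 in replicate 1 and 32.3 in replicate 2. Replicate 2 also listed a weaker peak of 8.6 that overlaps the second. No called summit lay in cbt coding sequence. The remaining called peak, at 2L:472389-472540, lay beyond the 3′ end of cbt and 251 bp upstream of the CG4297 start, on the side that faces MED15, which encodes a Mediator subunit. Its pooled signal was 282.0, with 113.6 in replicate 1 and 175.7 in replicate 2, and by distance it is a promoter peak of a neighbour rather than of cbt. The 9 peaks of the cbt window that were not called had signals of 3.8 to 36.4, with a median of 18.9.

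Lk6 held a single strong peak, between its 2 annotated start sites. Lk6 (FBgn0017581, 3R:11750931-11764457, minus strand) has 2 transcripts, a long one from 3R:11764457 and a short one whose start lies 4378 bp farther in, at 3R:11760079. The strongest peak, at 3R:11760923-11761162, had its summit 966 bp upstream of the short transcript's start and in the first intron of the long one. Its signal was 811.3 in the pooled list, 364.8 in replicate 1 and 451.5 in replicate 2 (mean 408.2 ± 61.3, SD, n = 2), ranks 17, 16 and 19 in the respective lists. The summits of the replicates were 3 bp apart.

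The other called Lk6 peak lay in an intron, 1158 bp downstream of the short transcript's start, with a pooled signal of 76.1, 43.7 in replicate 1 and 35.1 in replicate 2. It was far weaker than the first in every list. Neither Lk6 start site had a called summit within 500 bp. At the start of the long transcript the nearest peak was 79 bp downstream with a pooled signal of 41.7, 24.5 in replicate 1 and 25.9 in replicate 2, and its −log10 global IDR of 1.32 missed the limit. At the short transcript's start the nearest was 328 bp upstream with a pooled signal of 26.4. The 15 Lk6 peaks that were not called had signals of 5.7 to 41.7, with a median of 28.5.

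**Figure D1:**
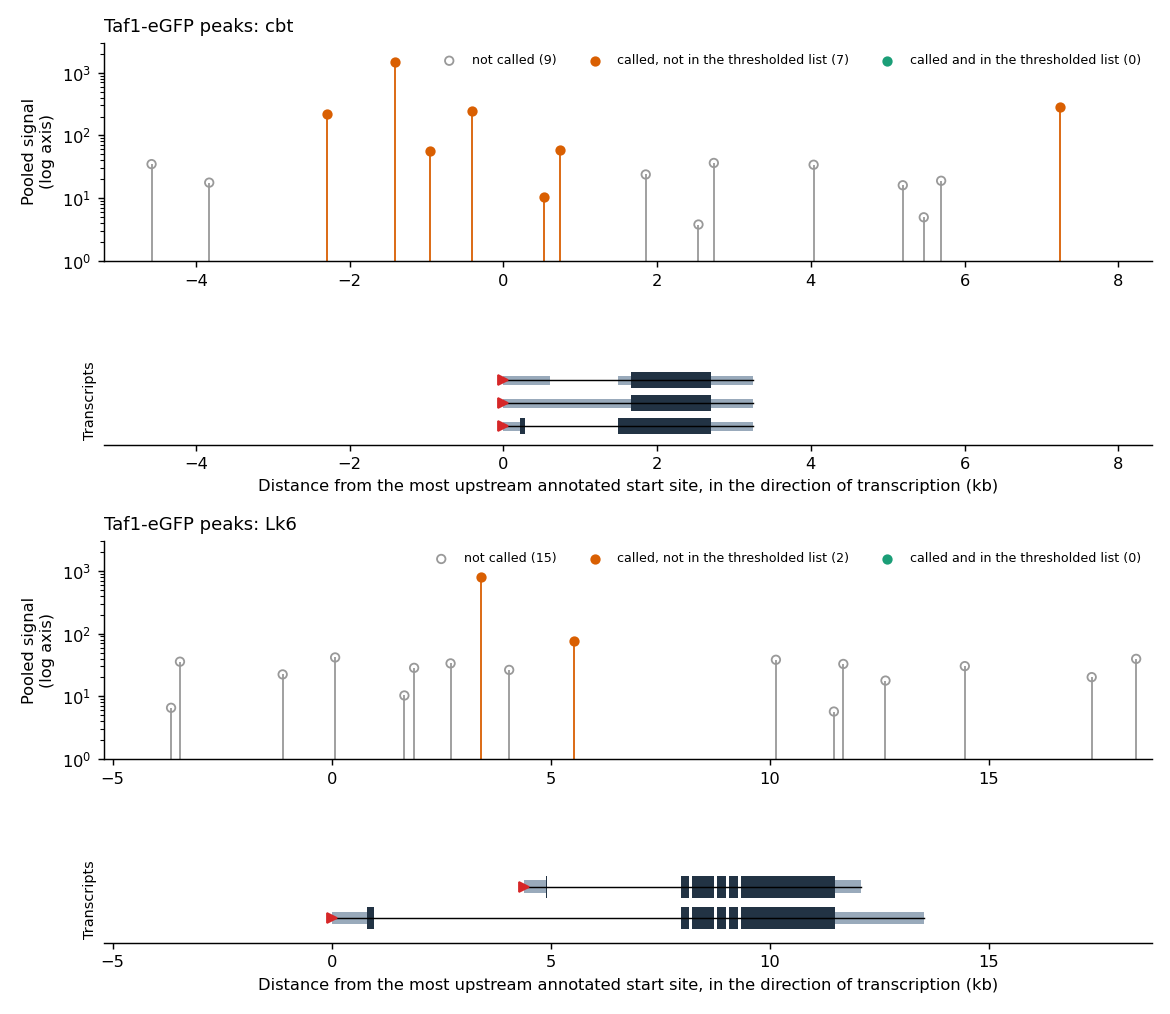
Peaks of the pooled ranked list at cbt and Lk6, with the signal on a log axis against distance in kb from the most upstream annotated start site in the direction of transcription; transcripts are drawn beneath with coding sequence dark, UTRs pale and start sites as red arrowheads. At cbt the strongest peak (1486.8) stands upstream of the start site, at Lk6 the strongest (811.3) stands between the 2 start sites, and no called peak at either gene is in the thresholded list.

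tara carried the most called peaks, spread along the whole window and none of them within 500 bp of a tara start site. tara (FBgn0040071, 3R:16225651-16260329, plus strand) has a long transcript from 3R:16225651 and a short one from 3R:16242816, which is 17165 bp farther in. Of its 12 called peaks 4 lay upstream of the gene, 7 in introns and 1 downstream. Only 1 other protein-coding gene on the arms had 12 or more called peaks in its window.

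The strongest tara peak, at 3R:16222362-16222613, was 3180 bp upstream of the long transcript's start and 924 bp upstream of the noncoding gene lncRNA:CR45643, whose start is the nearest one. Its signal was 572.2 in the pooled list, 221.6 in replicate 1 and 352.9 in replicate 2 (mean 287.3 ± 92.9, SD, n = 2), and its pooled rank was 48. A second upstream peak, 1190 bp from the tara start and 861 bp beyond the start of lncRNA:CR45643, had 316.7 in the pooled list, 134.2 in replicate 1 and 193.9 in replicate 2. The other upstream peaks, 3791 and 667 bp from the start, were weaker, at 61.2 and 65.6. So both strong upstream peaks were higher in replicate 2.

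Within the long first intron of tara, the strongest peak was at 3R:16236814-16237050, 5882 bp upstream of the short transcript's start. It had a pooled signal of 366.0, with 157.2 in replicate 1 and 207.3 in replicate 2. A weaker neighbour 6515 bp upstream of the same start had 78.6. Its strongest overlapping peaks were 39.2 in replicate 1 and 70.5 in replicate 2, with summits 240 bp apart. Closer to the short transcript's start, at 1483 and 1099 bp upstream, called peaks had pooled signals of 53.1 and 67.4. By the signal of overlapping peaks, these 2 differed most between the replicates at the locus. The first had 55.9 in replicate 1 and 11.1 in replicate 2. The second had 56.0 in replicate 2 and no overlapping peak in replicate 1. Each replicate thus had a peak of about 56 in this stretch, with its summit at 3R:16241342 in replicate 1 and at 3R:16241690 in replicate 2. Whether the replicates differ here in signal or in summit place was not tested. Downstream of the short transcript's start, intronic peaks at 5005, 7321 and 7866 bp had 140.5, 95.9 and 85.4.

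Weaker signal was listed at the short transcript's start itself. The peak 318 bp upstream of the short transcript's start had a pooled signal of 51.1, with 31.8 in replicate 1 and 29.1 in replicate 2, but a −log10 global IDR of 0.72. In the other pooled ranked list the same interval reached 2.18, as did a weaker interval 118 bp upstream of that start, and both would have been called. By contrast, the called tara peaks of 78.6, 53.1 and 67.4 had 0.11, 0.11 and 0.10 there and would not have been called. Beyond the 3′ end of tara, a called peak of 91.7 had the start of bor, 3034 bp away, as its nearest. The 36 tara peaks that were not called had signals of 3.2 to 51.1, with a median of 21.9.

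larp has the most start sites of the 4 genes, and its called peaks had 4 of them as their nearest start, each peak on the upstream side. larp (FBgn0261618, 3R:28318162-28336440, minus strand) has 7 transcripts from 6 distinct start sites. The strongest peak, at 3R:28326469-28326707, had its summit 331 bp upstream of the fifth start site, at 3R:28326264, and in an intron of the transcripts that begin farther upstream. Its signal was 628.5 in the pooled list, 289.3 in replicate 1 and 337.0 in replicate 2 (mean 313.2 ± 33.7, SD, n = 2), with ranks of 31, 25 and 39. Of the 4 strongest peaks it was the one with the smallest difference between the replicates.

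The fourth larp start site, at 3R:28328283, had called summits 641 and 1137 bp upstream. The nearer one had a pooled signal of 189.2, with 114.0 in replicate 1 and 83.1 in replicate 2, and the farther one 92.7, with 55.8 and 53.6. The third start site had a called summit 1282 bp upstream with 73.7, which was 28.8 in replicate 1 and 43.0 in replicate 2 and was called in neither replicate's own list. The first start site had a summit 103 bp upstream with 86.4, 52.7 in replicate 1 and 37.3 in replicate 2. Among called peaks placed by their nearest start site, the pooled signal was therefore highest at the fifth and next at the fourth. It was lowest at the outermost start and the third, a pair that the replicates put in opposite orders. The sixth start site, at 3R:28326241, lies close to the fifth, so the strongest peak cannot be assigned to 1 of them.

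At the second larp start site, shared by 2 transcripts, a peak lay 203 bp upstream with a pooled signal of 62.8, 26.1 in replicate 1 and 39.7 in replicate 2. Its −log10 global IDR was 0.13 in this pooled list and 1.84 in the other, so it was called in neither. The 21 larp peaks that were not called had signals of 3.2 to 62.8, with a median of 20.4. None of the called larp peaks lay in an exon.

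**Figure D2:**
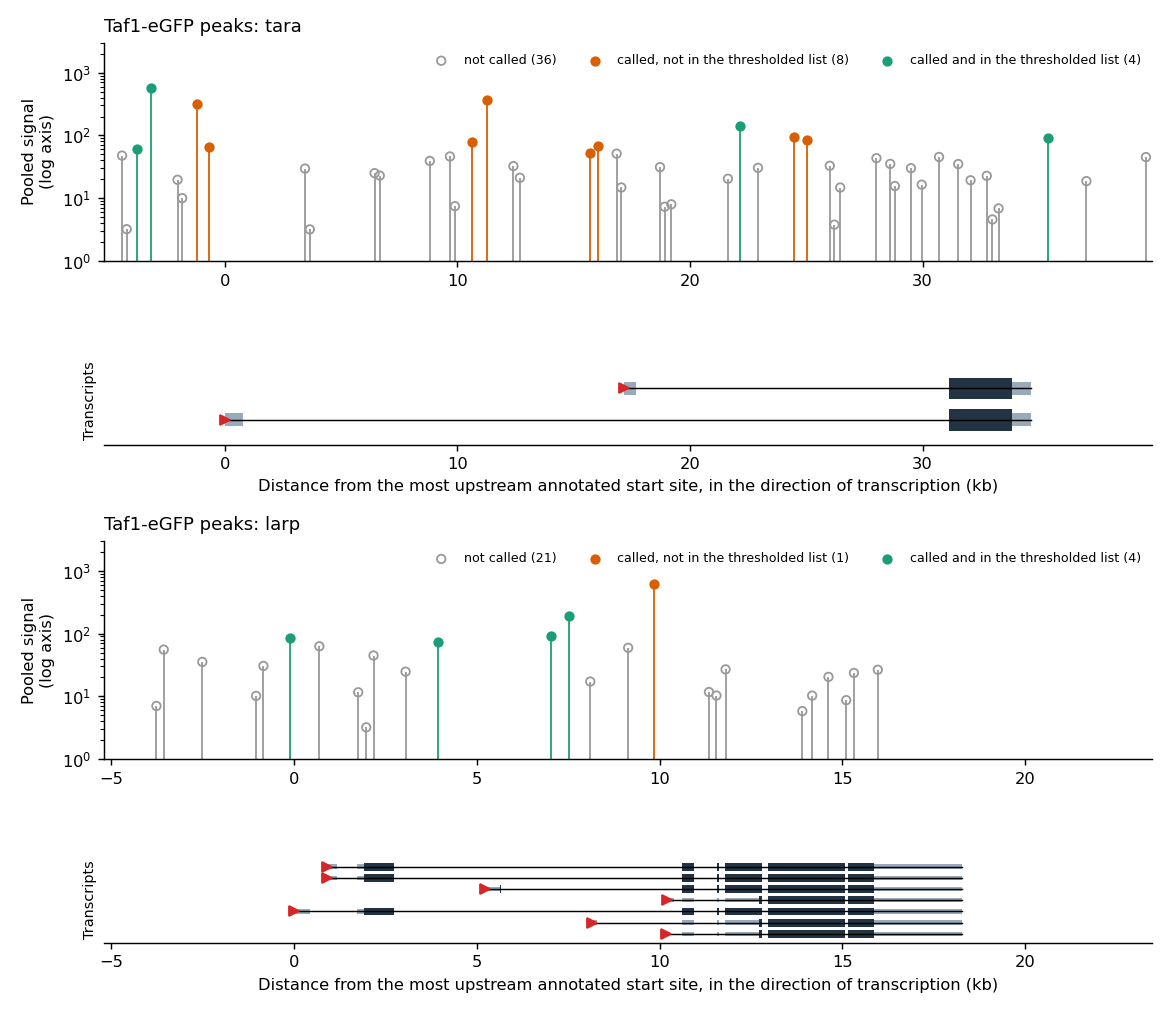
Peaks of the pooled ranked list at tara and larp, drawn as signal on a log axis against distance in kb from the most upstream annotated start site, with transcripts beneath and start sites as red arrowheads. The 12 called tara peaks lie upstream of the gene, in its introns and beyond its 3′ end, and the strongest larp peak (628.5), which is not in the thresholded list, stands just upstream of inner start sites.

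Across the 4 loci, 13 called summits lay in introns of the member, 9 upstream, 2 downstream and 2 in a 5′ UTR, and none in coding sequence or a 3′ UTR. Of the 81 peaks that were not called, 36 lay in introns, 14 upstream, 9 downstream and 3 in a 5′ UTR, with 15 in coding sequence and 4 in 3′ UTRs. Placement was not counted over all called peaks on the arms, so these counts have no background share and are a description only. A called summit within 500 bp of an own start site was found for cbt and larp, at 3 summits, and not for Lk6 or tara. The background for such a summit was 13.5% of protein-coding genes. None of the 4 strongest peaks except that of larp lay within 500 bp of an annotated start of any gene.

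Most of the called peaks overlapped a called peak in both replicates. At 17 of the 26 called peaks the strongest overlapping peak passed in both replicates' own ranked lists, at 6 in 1 of them and at 3 in neither. The 17 include the tara peak of 78.6, where the replicate summits were 240 bp apart. In these windows replicate 1 had 19 called peaks and replicate 2 had 22. By the same rule, all 4 genes had a called peak in each replicate, where the background was 21.6% of protein-coding genes in replicate 1 and 29.9% in replicate 2. Over the 25 called peaks with an overlapping peak in both replicates the median log2 ratio of replicate 2 to replicate 1 was 0.17, with a range of -2.33 to 1.97. The lower end was the tara peak of 53.1, where replicate 2 also had a peak of 56.0 nearby that did not overlap it. Over the 2581 such peaks on the arms the median was 0.16 and the SD 0.64. The ratio at each of the 4 strongest peaks was positive, at 0.35 for cbt, 0.31 for Lk6, 0.67 for tara and 0.22 for larp.

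**Figure D3:**
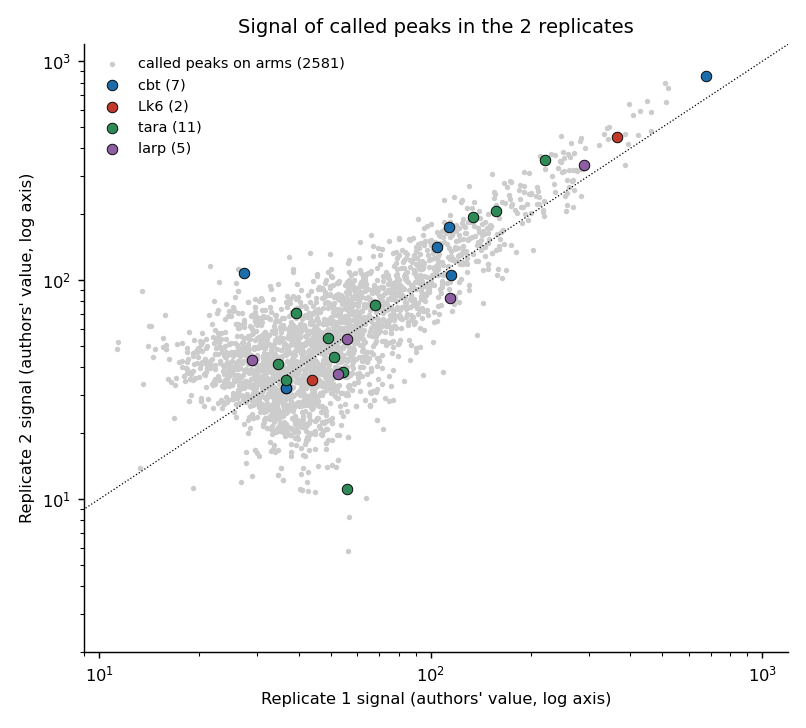
Signal of called peaks in replicate 1 (x axis) and replicate 2 (y axis), both on log axes, with grey points for 2581 called peaks on the arms, coloured points for the 4 genes and a dotted line of equal signal. The strongest peak of each gene lies close to the line and slightly above it, and the points farthest from the line are a cbt peak (27.3 and 107.5) and a tara peak (55.9 and 11.1).

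Most of these peaks were in the ranked lists and not in the thresholded ones. Of the 26 called peaks 18 (69.2%) were absent from the larger pooled thresholded list, 7 of 7 at cbt, 2 of 2 at Lk6, 8 of 12 at tara and 1 of 5 at larp. Over all arms 3.17% of called peaks (87 of 2745) were absent, and every thresholded peak was a called peak of the ranked list. These 4 windows held 18 of the 87. Of the 50 strongest pooled peaks, 3 on the arms were absent, and they were the strongest peaks of cbt, Lk6 and larp. The members were chosen with earlier results of these data known, so these counts and shares are a description and no test is attached. At least 1 absent called peak was found at 0.83% of protein-coding genes, and at 0.659% the strongest called peak of the window was itself absent. The deposited listing names an additional source file for each thresholded list, which was not analysed here, and its part in the absences was not tested.

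The replicates were then compared at these peaks. None of the 18 peaks appeared in any of the 4 thresholded lists, although the strongest peaks of cbt, Lk6 and larp reached the cap of 5.0 on the −log10 global IDR scale in the pooled lists and in both replicates. The 2 peaks in the cbt 5′ UTR were called in neither replicate, so their absence from the replicates' thresholded lists follows from that. At the tara peaks of 65.6 and 95.9 the overlapping replicate 1 peak was not called, and at that of 67.4 replicate 1 had none. At the tara peak of 53.1 the overlapping replicate 2 peak was not called. Their absence from the thresholded list of that replicate follows likewise. The cbt peak of 10.3 and the tara peaks of 78.6, 53.1 and 67.4 were not called in the other pooled ranked list. cbt and Lk6 had no peak in any thresholded list, a state found at 0.444% of protein-coding genes for the larger pooled list (a called peak in the ranked list and none in the thresholded one). tara kept 4 peaks, at 61.2, 572.2, 140.5 and 91.7, and larp kept 4, led by 189.2. The thresholded list of replicate 1 held 3 peaks at tara and 3 at larp, and that of replicate 2 held 4 and 2. The conservative pooled list held the same 8 peaks as the larger one. As background, 35.6% of protein-coding genes had a peak in the larger thresholded list, 31.5% in the conservative one, 21.4% in that of replicate 1 and 29.4% in that of replicate 2.

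At tara, peaks that were kept and peaks that were absent alternated along the gene. The upstream pair at 3791 and 3180 bp was kept, and the pair at 1190 and 667 bp was absent. All 4 intronic peaks before the short transcript's start were absent, the one 5005 bp after it was kept, and those at 7321 and 7866 bp were absent. At larp the strongest peak was absent and its 4 weaker neighbours were kept. Signal therefore did not separate the groups: absent member peaks ran from 10.3 to 1486.8 and kept ones from 61.2 to 572.2.

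**Figure D4:**
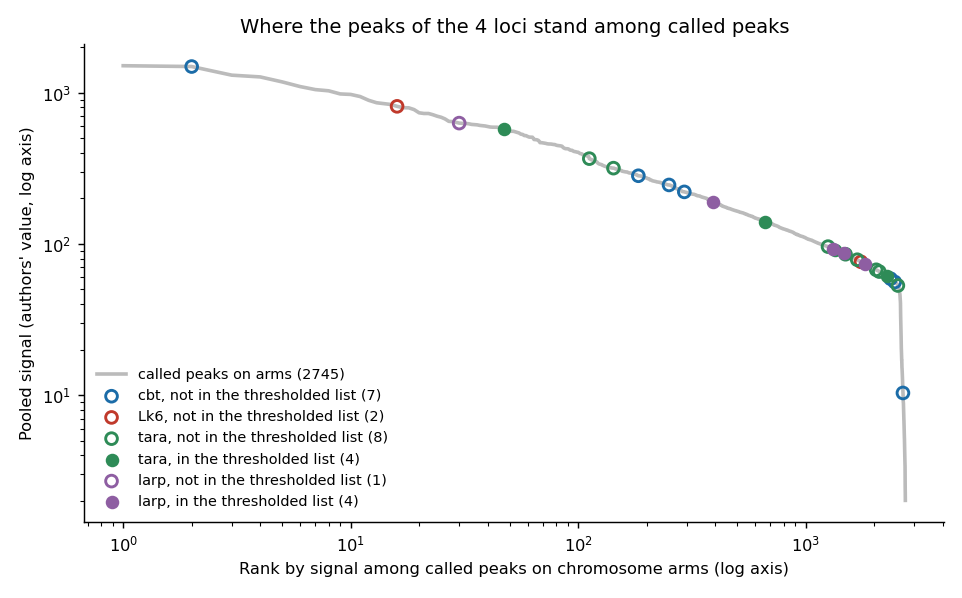
Pooled signal (log axis) against rank by signal (log axis) for the 2745 called peaks on the arms (grey line), with open circles for peaks of the 4 genes that are not in the larger pooled thresholded list and filled circles for those that are. Open circles stand at the head of the curve for cbt, Lk6 and larp, and both kinds are found farther down it.

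The strong peaks were narrow. Of the 26 called member peaks 12 were narrower than 316 bp, the commonest width, against 15.7% of called peaks on the arms. The narrowest, at 79 bp, was the cbt peak 2294 bp upstream of the start. Width and signal come from the same peak call, so this is a description of the strong peaks and no separate measure.

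The sequences under the summits were compared with those under all 2745 called summits on the arms, 201 bases each. The GC content of the 4 strongest windows was 38.8% at cbt, 32.3% at Lk6, 45.8% at tara and 37.3% at larp, with a median of 34.8% over all windows. Over the 26 member windows the median was 37.8%, with a range of 26.4% to 55.2%. Letters of 8 motifs were searched on both strands. GAGAG, the core letters bound by GAGA factor, was found in 10 of 26 member windows, those of the strongest Lk6 and tara peaks among them, and in 22.4% of all windows. TATAAA, the letters of the TATA box, was found in 3 of 26, among them the strongest cbt window, and in 37.3% of all. CGATA, which the boundary factor BEAF-32 binds, was found in 6 of 26 and in 28.5% of all, and it also occurs within TATCGATA.

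The other motifs were uncommon both in the member windows and over all windows. TATCGATA, the DNA replication-related element, and GGTCACAC, the core of Ohler motif 1, were found in none of the 26, against 3.83% and 1.53% of all windows. CAGCTG, the E-box within Ohler motif 5, was found in 1 of 26 and 7.69% of all. CAGGTA, which Zelda binds, was found in 1 of 26, the tara window 1190 bp upstream of the start, and in 3.68% of all. TGANTCA, the letters of AP-1 sites, was found in 2 of 26 and in 4.74% of all. The larp window, printed above, held none of the 8. A match of letters is a description and not a binding site.

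By strongest signal in the window, cbt was 1 of 5 protein-coding genes at or above its value, with ush, whose body holds the same peak, among the others, and 67 genes were at or above the value of Lk6, 109 that of larp and 160 that of tara, of 13968. The order from high to low was cbt, Lk6, larp and tara in the pooled list. In replicate 1 the strongest signals ran in the same order, whereas in replicate 2 tara (352.9) stood above larp (337.0), so these last do not differ beyond their spread. The genes with the most similar strongest signal in the pooled and both replicate lists, by Euclidean distance of log2 values over 3 lists, were CG11050 and DIP-iota for cbt (distance 0.03), CG17292 and CG13392 for Lk6 (0.12), Chro and slif for tara (0.09) and FBgn0003607, which encodes HP1a, and CG8419 for larp (0.01). Each pair shares 1 peak. The peak shared by CG11050 and DIP-iota had a signal of 1505.6, and that shared by FBgn0003607 and CG8419 had 626.1. The larger thresholded list held 1 to 3 peaks in the window of each of these 8 genes.

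Genes that work with the 4 members were counted for a called summit within 500 bp of an own start site, against the 13.5% of all protein-coding genes. None of 8 other Sp and KLF zinc finger genes, relatives of cbt, had one. Of 6 genes of the Mondo and Mlx sugar response, in which cbt acts, 3 did, namely bigmax (144.1), which encodes a partner of Mondo, Myc (67.1) and Mnt (57.0). Of 14 genes of eIF4F and TOR translation control, the setting of Lk6 and larp, 2 did, Thor (86.3), which encodes the eIF4E-binding protein, and Larp7 (68.9), whose product binds 7SK RNA in the control of transcription rather than of translation. Of 13 genes of MAP kinase signalling, some branches of which activate Mnk-type kinases, 3 did, p38a (213.1), Mkp3 (154.9) and kay (63.9). Of 13 cell cycle and trithorax genes linked to tara 4 did, led by brm (453.3), Dp (299.7) and CycE (81.0). Of 12 clock genes 4 did, led by sgg (219.4), dco (109.4) and Pdp1 (106.7). The signals in these sentences are of the strongest called promoter peak. They are not comparable with the strongest member peaks, which were taken anywhere in the window and on which the members were chosen. By the promoter measure larp had 628.5, but this is its strongest peak, on which it was chosen, so it is not set against the lists. cbt had 245.2, below brm and Dp, and Lk6 and tara had no called promoter peak.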

How the data were processed

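The authors deposited 8 peak lists on dm6, per the labels: a ranked and a thresholded list for each of 2 replicates, and for the pooled reads 2 ranked lists, a conservative and a larger thresholded list. Sonicated fragments were 200 to 800 bp, per the labels. Which aligner and peak caller were used is not given in the sources used here. The scale of the deposited signal is not named. The deposited score is an IDR score, 830 or more in the thresholded lists, and the deposited −log10 global IDR is capped at 5.0. A further 4 signal columns of the pooled lists, which no header ties to a replicate, were left out.

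Summits were placed on Ensembl release 115 genes, with UTR or coding sequence of any transcript taken before intron, and sequence came from RefSeq's release 6 assembly. No peak ended past its arm. A replicate's value at a pooled peak is its strongest peak overlapping by at least 1 bp. The members and lists were chosen with earlier results of these data known. Named besides the members were genes that hold, or whose start is nearest to, a called peak, the 2 genes most like each member, and up to 3 genes of each related list. Of the symbols in those lists, Tor was not matched. Window counts and promoter calls were tested on simulated peaks. Alternatives were other flanks, IDR limits, lists, single replicates and matching rules. Scripts ran under Python 3.11.15 (pandas 2.3.3, numpy 2.4.6, matplotlib 3.10.9).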

Additional observations from a re-analysis of the deposited data

How the results depend on the processing

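The counts of called peaks at cbt and tara depended on the window, and those at cbt, Lk6 and tara on the kind of list. With the gene body only, cbt had 2 called peaks and tara 7, and the share of protein-coding genes with a called peak was 8.21%. With a flank of 1 kb cbt had 4 and the share was 20.5%. In the larger and in the conservative thresholded list cbt had 0, Lk6 0 and tara 4. With a global IDR of 0.05 or less larp had 8. In single replicates the counts were 5 in each at cbt, 2 in each at Lk6, 8 and 12 at tara and 4 and 3 at larp, and the share was 21.6% and 29.9%. Counting overlapping intervals once left 6 at cbt, and keeping only summits nearest to a start of the member left 6 at cbt and 8 at tara, both chosen after seeing the data. No other alternative moved a count by more than 1.5 times. Among these, the other pooled ranked list gave 6 at cbt and 11 at tara, where not all were the same peaks. The strongest signal fell to 58.9 at cbt and 366.0 at tara with the gene body only, and to 189.2 at larp in the larger thresholded list. The median log2 ratio between replicates was 0.20 with summits within 100 bp and 0.24 with reciprocal overlap. No paired analysis was possible because there was 1 group. The depth is unknown, so the files cannot show whether weak peaks missed the limit for lack of reads.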
